A study of Mus musculus with 8 samples.

Results

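The Id proteins and E proteins were followed as 6 genes, Id1, Id2, Id3, Tcf3, Tcf4 and Tcf12, chosen by name from the 41214 genes in the count tables, in whole bone marrow (BM) RNA-seq of 8 mice. All 6 had counts in every mouse and passed the filter on low counts in every comparison. The mice were C57Bl6 animals in 4 groups of 2. The KD mice carried a knock-in allele in which a human GFI1 cDNA is expressed at a low level because of a floxed neomycin cassette in antisense orientation, and the KO mice lacked Gfi1. Young KD mice were 39 and 42 days old and young KO mice 48 and 44 days. Old KO mice, labelled as without AML like both young groups, were 158 and 101 days old. Sick KD mice were 187 and 78 days old and are labelled as having AML, a disease that the study's text calls a myeloproliferative neoplasm. No wild-type marrow was analysed here, so every level below is compared between mice with reduced or absent Gfi1.

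E proteins are basic helix-loop-helix transcription factors that bind the E-box CANNTG as dimers. Tcf3 encodes E2A, which B-cell development requires, Tcf4 encodes E2-2, which plasmacytoid dendritic cells require, and Tcf12 encodes HEB, which acts in thymocytes. Id proteins have the helix-loop-helix but no basic region, so an E protein bound to an Id protein cannot hold DNA. Id genes are targets of BMP and SMAD signalling, Id3 is also a target of EGR factors, and Gfi1, a zinc-finger repressor that recruits Kdm1a and Rcor1, has been described as a repressor of Id genes in blood cells.

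Counts on genes ranged from 26642067 to 42679114 per library, and the 2 mice of each group differed by more than sampling noise (chi-square per degree of freedom from 21.8 to 35.9). In the sick KD libraries 42.0% and 38.8% of uniquely aligned reads lay outside genes, against 26.9% to 33.8% in the other 6, and 1.42% and 1.16% of counts were mitochondrial, against 0.464% to 0.787%. Gfi1 itself was at 6.20 and 7.01 CPM (depth-normalised read counts) in young KD, 5.43 and 7.08 in sick KD, 14.2 and 14.4 in young KO and 13.2 and 29.9 CPM in old KO. Mouse Gfi1 was thus lower where the label says KD than where it says KO, the human cDNA was not counted, and groups and directions below rest on the labels. Throughout, CPM were scaled by the trimmed mean of M values (TMM), values are given for replicate 1 and then replicate 2, errors are SD with n = 2, and a gene is said to have risen or fallen only where its adjusted p in edgeR's quasi-likelihood test was under 0.05. A 2-sided permutation of 2 mice against 2 cannot give a p below 0.333.

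Sequences before the RefSeq start sites of Id2 and Tcf3 are shown because these members had the lowest adjusted p of their families in sick KD marrow and moved in opposite directions. Both genes are on the minus strand, Id2 (ENSMUSG00000020644) at chr12:25093799-25097140 and Tcf3 (ENSMUSG00000020167) at chr10:80409514-80433647 of GRCm38. The bases come from the RefSeq promoter table (GRCm38.p6), read 5′ to 3′ on the gene's strand. The Id2 stretches lie inside the gene's longer annotated span, before a RefSeq start within it, and the Tcf3 stretch lies outside its gene. Capitals mark an E-box (CANNTG, here CAGCTG in Id2 and CACTTG in Tcf3), the SMAD-bound word GGCGCC, and AATC, the core of the Gfi1 site, which appears as GATT where it lies on the other strand.

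Id2 before its RefSeq start, chr12:25096254-25096342, minus strand, from -250 to -162: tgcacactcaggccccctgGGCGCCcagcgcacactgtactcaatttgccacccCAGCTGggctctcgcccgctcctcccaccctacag
Id2 AATC site, chr12:25096129-25096158, minus strand, from -66 to -37: ttcagggatgcccGATTgagcggccagggc
Tcf3 before its RefSeq start, chr10:80433648-80433885, minus strand, from -250 to -13: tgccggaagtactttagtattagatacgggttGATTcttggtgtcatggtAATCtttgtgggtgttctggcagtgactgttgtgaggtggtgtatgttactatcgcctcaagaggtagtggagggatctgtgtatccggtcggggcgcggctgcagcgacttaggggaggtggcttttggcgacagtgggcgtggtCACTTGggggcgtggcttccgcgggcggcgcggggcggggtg

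In the Id2 window the GGCGCC match began at -231, the CAGCTG match at -196 and the reverse AATC match at -53, inside an annotated exon. The Tcf3 window held CACTTG at -54 and AATC on the reverse strand at -218 and on the forward strand at -200. These words are frequent. Of 32851 mouse promoter windows of the same length, 72.3% held CANNTG, 16.3% held CAGCTG, 73.1% held AATC on either strand and 11.9% held GGCGCC. The Id3 window held none of these words. All 3 Tcf12 windows held CANNTG, 1 of them as CAGCTG, and the window at chr9:71896047-71896346 also held 2 AATC matches. Id1 had no window in the promoter table, and Tcf4 was not searched. The matches are a description of the sequence only.

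Id2 was at 58.3 and 56.0 CPM in young KD, 47.5 and 46 CPM in young KO, 49.0 and 53.8 CPM in old KO, and 176 and 145 CPM in sick KD. The sick KD mice were far above the other 6, which lay within a narrow band. The group means were 57.1 ± 1.64, 46.8 ± 1.08, 51.4 ± 3.39 and 161 ± 22 CPM.

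Id1 (ENSMUSG00000042745, chr2:152736251-152737410, plus strand) was at 24.2 and 30.4 CPM in young KD, 32.1 and 25.9 in young KO, 27.1 and 28.5 in old KO, and 50.6 and 57.7 in sick KD. As with Id2, both sick KD mice lay above all others, while the remaining 3 groups overlapped at means of 27.3 ± 4.34, 29.0 ± 4.34 and 27.8 ± 1.03 CPM.

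Id3 (ENSMUSG00000007872, chr4:136143497-136145755, plus strand) followed a different order. It was at 13.5 and 12.2 CPM in young KD, 10.2 and 9.62 in young KO, 4.22 and 3.34 in old KO, and 0.958 and 2.92 in sick KD. The sick KD values rest on 24 and 83 counts. Both sick KD mice were below both old KO mice, and these were below all 4 young mice. The remaining family member, Id4, was close to the limit of detection, with at most 18 counts in any library and 0 and 4 counts in sick KD, and was not tested in old KO against sick KD.

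Tcf3 was at 186 and 145 CPM in young KD, 134 and 159 in young KO, 90.0 and 96.1 in old KO, and 52.3 and 70.9 in sick KD. The young groups overlapped, the old KO mice lay below them, and the sick KD mice lay lowest, with a mean of 61.6 ± 13.2 CPM against 165 ± 28.9 in young KD.

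Tcf4 was at 92.4 and 93.7 CPM in young KD, 82.0 and 94.5 in young KO, 76.1 and 81.9 in old KO, and 76.1 and 72.9 in sick KD. Tcf12 (ENSMUSG00000032228, chr9:71842688-72111871, minus strand) was at 112 and 109 CPM in young KD, 96.2 and 115 in young KO, 68.2 and 81.5 in old KO, and 92.0 and 80.0 in sick KD. For both genes the old KO and sick KD mice overlapped, and all 4 lay below the young mice.

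**Figure D1:**
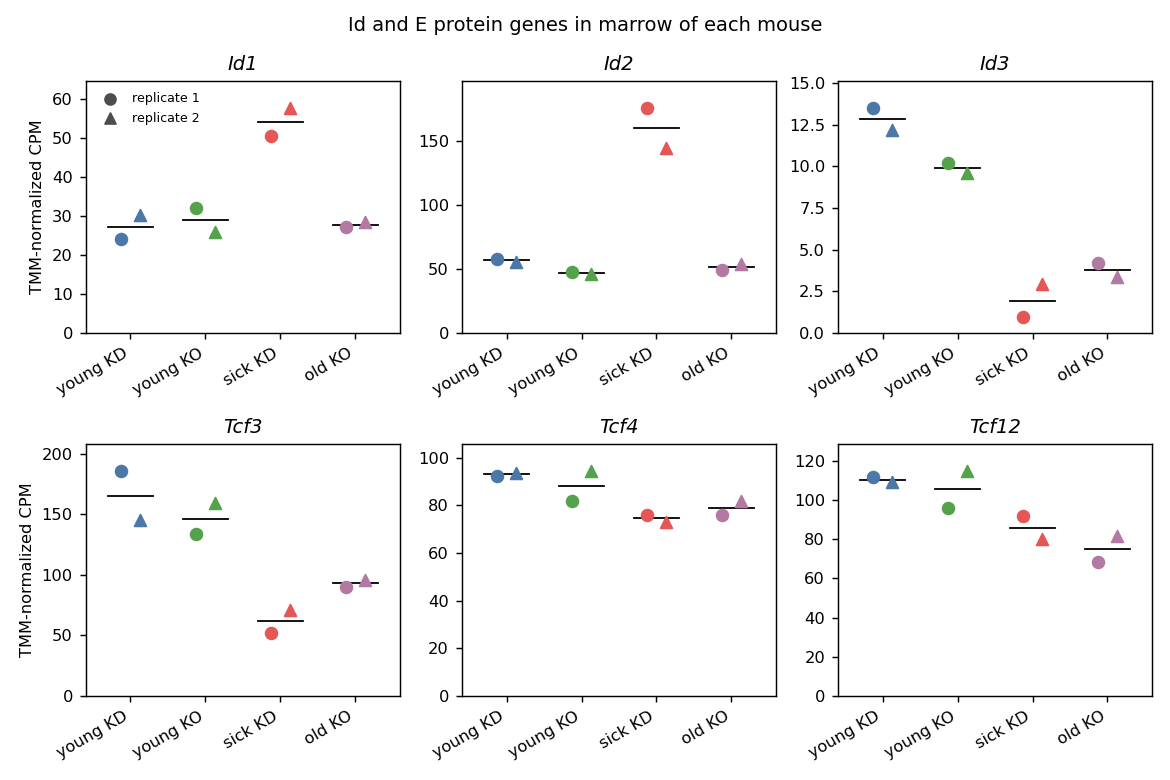
TMM-normalized CPM (y axis, from 0, scaled per gene) of the 6 genes in each of the 8 mice (circle, replicate 1; triangle, replicate 2), by group on the x axis, with black lines at the means of 2 mice. Id1 and Id2 are highest in both sick KD mice (Id2 at 176 and 145 CPM), whereas Id3 and Tcf3 are lowest there (Tcf3 at 52.3 and 70.9 CPM).

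Levels of different genes were compared per kb of exon. On that scale Tcf3 led in young KD (40.9 CPM per kb) and young KO (36.3 CPM per kb). In young KD, Id1 and Id2 came next at 23.5 and 23.4 CPM per kb and did not differ beyond their spread, followed by Id3 at 7.18, Tcf12 at 7.11 and Tcf4 at 3.40 CPM per kb, with Id3 and Tcf12 again overlapping. In young KO the order was Tcf3, Id1 at 25, Id2 at 19.2, Tcf12 at 6.80, Id3 at 5.53 and Tcf4 at 3.22 CPM per kb, with no overlap between neighbours. In sick KD, Id2 (65.9) and Id1 (46.7 CPM per kb) came first and then Tcf3 at 15.3, above Tcf12 at 5.54, Tcf4 at 2.72 and Id3 at 1.08 CPM per kb, again with no overlap between neighbours. In old KO, Id1 (23.9) and Tcf3 (23 CPM per kb) overlapped at the top, above Id2 at 21.1, Tcf12 at 4.82, Tcf4 at 2.89 and Id3 at 2.11 CPM per kb. The places of Tcf4 and Tcf12 depended on the length used, because their exons span 27.38 and 15.53 kb in union while their median coding transcripts measure 1.84 and 2.26 kb. Per kb of coding transcript, a length chosen after seeing these values, Tcf4 was second in young KD at 50.5 and first in old KO at 42.9 CPM per kb, where it overlapped Id2 at 40.5, and Id2 remained first in sick KD at 126 CPM per kb.

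By family, with CPM summed so that longer genes weigh more, Id CPM was 228 and 206 in sick KD and 80.3 to 98.6 in the other 6 mice, and E protein CPM was 220.3 and 223.8 in sick KD, 234.3 and 259.5 in old KO, and 312.2 to 389.8 in the 4 young mice. Summed E protein CPM was therefore lower in the old KO mice as well, whereas summed Id CPM was not higher there. The ratio of Id2 to Tcf3 CPM was 3.37 and 2.05 in sick KD, 0.544 and 0.560 in old KO, and 0.289 to 0.387 in the young mice. The sick KD mice lay above the other 6 and the old KO mice above the young. Per kb of exon the Id-to-E ratio was 5.38 and 4.37 in sick KD, 1.55 and 1.51 in old KO, and 0.925 to 1.25 in the young mice. Per kb of coding transcript it was 1.87 and 1.72, 0.656 and 0.631, and 0.432 to 0.565, so sick KD lay above old KO and old KO above the young mice on both scales, while the 2 young groups overlapped. The make-up of the families differed as well. Tcf3 gave 23.7% and 31.7% of E protein CPM in sick KD, 38.4% and 37.0% in old KO and 41.6% to 47.6% in young mice, and Id3 gave 0.421% and 1.42% of Id CPM in sick KD, 5.25% and 3.90% in old KO and 11.3% to 14.1% in young mice.

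**Figure D2:**
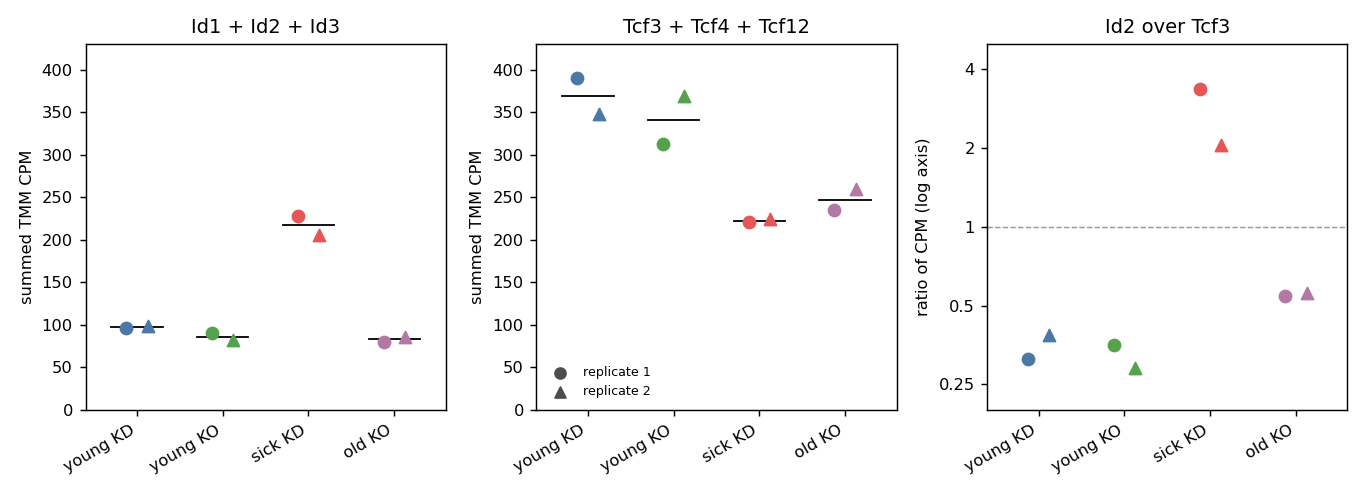
Summed TMM CPM of Id1, Id2 and Id3 (left), of Tcf3, Tcf4 and Tcf12 (middle), and the ratio of Id2 to Tcf3 CPM on a log axis (right; dashed line, equal CPM), for each mouse by group, with black lines at the group means of the sums. Summed Id CPM is 228 and 206 in the sick KD mice and at most 98.6 elsewhere, and the ratio is 3.37 and 2.05 in those mice and at most 0.560 elsewhere.

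The first comparison asked whether KO and KD marrow already differed in young mice without AML. None of the 6 genes passed the test between young KO and young KD. Id2 was 0.30 ± 0.08 lower on the log2 scale (log2 fold change -0.30, adjusted p = 1) and Id3 0.39 ± 0.12 lower (log2 fold change -0.39, adjusted p = 1), the ± here and below being the standard error of the fit. Both young KO mice were below both young KD mice for these genes, a pattern that 27.2% of all genes showed between these groups in 1 direction or the other. Id1, Tcf3, Tcf4 and Tcf12 overlapped between the groups, with log2 fold changes of 0.08, -0.18, -0.09 and -0.07. Of 14839 genes tested, 0.0404% passed, 0.0202% as higher and 0.0202% as lower, so this comparison called almost nothing among the members or elsewhere. At an unadjusted p under 0.05, 2 of the 6 members and 394 of all genes passed, and DESeq2 called 0 members.

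The second comparison set sick KD against young KD marrow, in which disease and age changed together and cannot be told apart. Id2 rose 2.83-fold (log2 fold change 1.50 ± 0.13, adjusted p = 0.00365) and Id1 rose 2.00-fold (1.0 ± 0.15, adjusted p = 0.0108). Id3 fell 6.50-fold (-2.70 ± 0.45, adjusted p = 0.0132) and Tcf3 fell 2.66-fold (-1.41 ± 0.19, adjusted p = 0.00802). Thus 4 of the 6 genes were called, 2 in each direction, where 20.9% of 14656 genes were called, 9.45% as higher and 11.4% as lower. All 6 genes were without overlap between the groups, as were 66.5% of all genes.

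These 4 calls held in every setting tried, including without each mouse in turn, where the log2 fold change ranged from 1.35 to 1.64 for Id2, 0.83 to 1.15 for Id1, -3.73 to -2.13 for Id3 and -1.65 to -1.21 for Tcf3. Tcf4 and Tcf12 were lower in sick KD by less. Their log2 fold changes were -0.31 ± 0.10 (adjusted p = 0.0687) and -0.35 ± 0.11 (adjusted p = 0.0707). Both passed the threshold with DESeq2 (adjusted p = 0.0477 and 0.0414), without TMM scaling (0.0237 and 0.0267), and after correcting each library for gene length, span and GC content, which took them to -0.71 (adjusted p = 0.0126) and -0.58 (adjusted p = 0.00645). Tcf12 also passed without the filter on low counts (0.0482) and without sick KD replicate 1 (0.0371). Scaling to total counts alone moved the median of all genes by -0.13 on the log2 scale and the split of calls from 1385 higher and 1678 lower to 871 and 2635.

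The third comparison set old KO against sick KD marrow, mice of overlapping age. All sick mice were KD and all old mice without AML were KO, so genotype and disease cannot be told apart here. Relative to sick KD, Id2 was lower in old KO by 3.16-fold (log2 fold change -1.66 ± 0.14, adjusted p = 0.00346), Id1 by 1.97-fold (-0.98 ± 0.12, adjusted p = 0.00566), and Tcf3 was 1.50-fold higher (0.58 ± 0.16, adjusted p = 0.0473). In all, 3 of the 6 genes were called, against 18.1% of 14470 genes (9.93% higher and 8.22% lower). Both old KO mice were apart from both sick KD mice for 4 of the 6 genes and for 65.9% of all genes. This comparison shares the sick KD mice with the one before, so the mirrored values of Id1 and Id2 are not independent.

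The Id1 and Id2 calls held in every setting, from -1.07 to -0.88 for Id1 and -1.79 to -1.51 for Id2 without each mouse in turn. The Tcf3 call did not. It was lost without sick KD replicate 1 (0.38, adjusted p = 0.0946), without old KO replicate 1 (0.63, adjusted p = 0.0616) and without old KO replicate 2 (0.54, adjusted p = 0.103). Id3 was not called (0.93 ± 0.48, adjusted p = 0.213), and its value depended on which sick KD mouse was kept, at 1.95 (adjusted p = 0.0235) without replicate 2 and 0.35 (adjusted p = 0.538) without replicate 1. Tcf4 (0.07 ± 0.11, adjusted p = 0.679) and Tcf12 (-0.22 ± 0.13, adjusted p = 0.294) overlapped between the groups. After the correction for length, span and GC content, Tcf4 was called at 0.57 (adjusted p = 0.0235) and Tcf12 was at 0.07. Scaling to total counts alone moved the median of all genes by 0.11 and the split of calls from 1437 higher and 1189 lower to 2125 and 868.

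The fourth comparison set old KO against young KO marrow, both without AML. Id3 fell 2.62-fold (-1.39 ± 0.20, adjusted p = 0.0497). It was the single member called, beside 0.929% of 14847 genes called in all and 0.606% called as lower. The call lay at the threshold and was lost without any 1 of the 4 mice (adjusted p from 0.0671 to 0.209), without TMM (0.0525), with a minimum of 10 counts in every mouse (0.0558) and in a fit of all 8 mice (0.215), while the log2 fold change stayed between -1.57 and -1.22 without each mouse in turn. Tcf3 was -0.65 ± 0.11 (adjusted p = 0.0934), Tcf12 -0.50 ± 0.13 (adjusted p = 0.272) and Tcf4 -0.16 ± 0.11 (adjusted p = 0.792) on the same scale. Tcf3 passed with DESeq2 (adjusted p = 0.00017) and without the filter on low counts (2.12e-05). Id1 (-0.06 ± 0.12) and Id2 (0.14 ± 0.09) did not pass. The groups were apart for 5 of the 6 genes and for 37.4% of all genes.

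An interaction fitted over all 8 mice asked if the KO to KD difference was larger or smaller between old KO and sick KD than between the young groups. Only the KD mice were sick at the later stage, so effects of genotype, age and disease cannot be told apart in it. Id2 (-1.37 ± 0.15, adjusted p = 0.008) and Id1 (-1.06 ± 0.21, adjusted p = 0.0287) passed, both towards lower in KO. That is 2 of the 6 genes, against 7.43% of 15102 genes, with 4.32% higher and 3.11% lower. Id2 passed without any mouse (adjusted p from 0.00891 to 0.0411). Id1 stayed between -1.24 and -0.90 but passed only without sick KD replicate 2 (adjusted p = 0.0397) or young KD replicate 2 (0.0307). It missed the threshold without sick KD replicate 1 (0.0519), old KO replicate 1 (0.0865), old KO replicate 2 (0.0521), young KO replicate 1 (0.0946), young KO replicate 2 (0.0578) and young KD replicate 1 (0.0999). Id3 (1.31 ± 0.54, adjusted p = 0.164), Tcf3 (0.75 ± 0.24, adjusted p = 0.0916), Tcf4 (0.15 ± 0.14, adjusted p = 0.514) and Tcf12 (-0.15 ± 0.18, adjusted p = 0.635) did not pass. Tcf3 passed with DESeq2 (adjusted p = 0.0182), without the filter on low counts (0.000231) and without sick KD replicate 2 (0.98, adjusted p = 0.0456). Id3 passed without the filter (0.00192) and without sick KD replicate 2 (2.32, adjusted p = 0.0141), and was at 0.73 (adjusted p = 0.172) without sick KD replicate 1. Without TMM the split of interaction calls moved from 653 higher and 469 lower to 1241 and 351, and the median by 0.13.

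**Figure D3:**
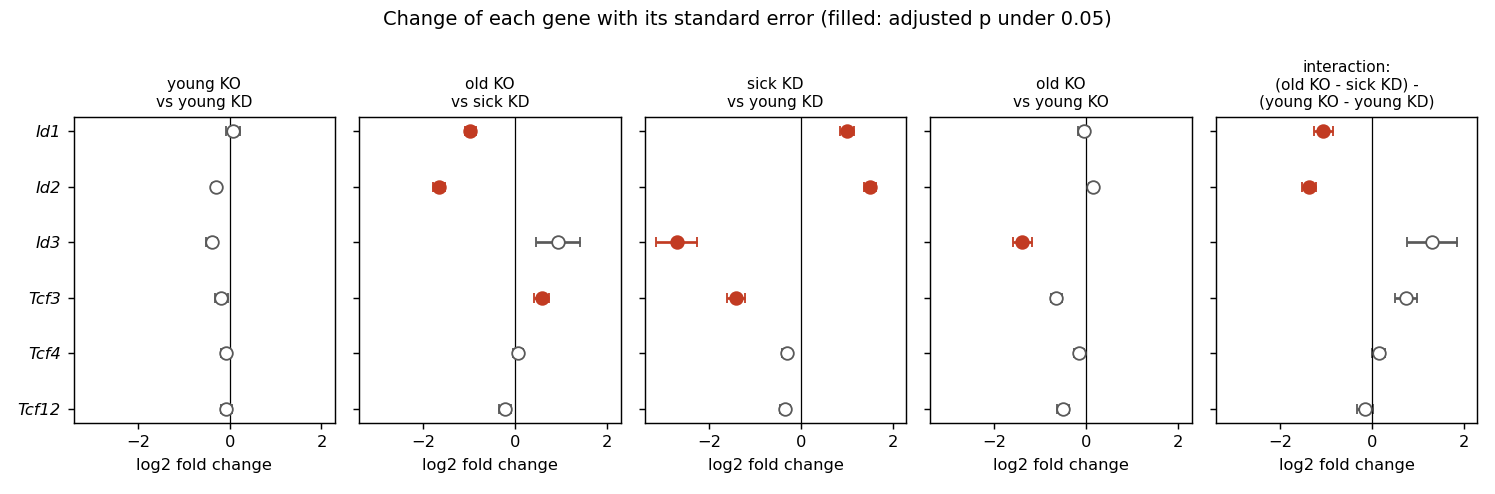
Log2 fold change (x axis) with its standard error for each gene in the 4 pairwise comparisons and the interaction (panels), from edgeR's quasi-likelihood test, with filled points where the adjusted p was under 0.05. No gene passes between the young groups, and Id1 and Id2 pass in all 3 panels that involve sick KD mice.

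**Figure D4:**
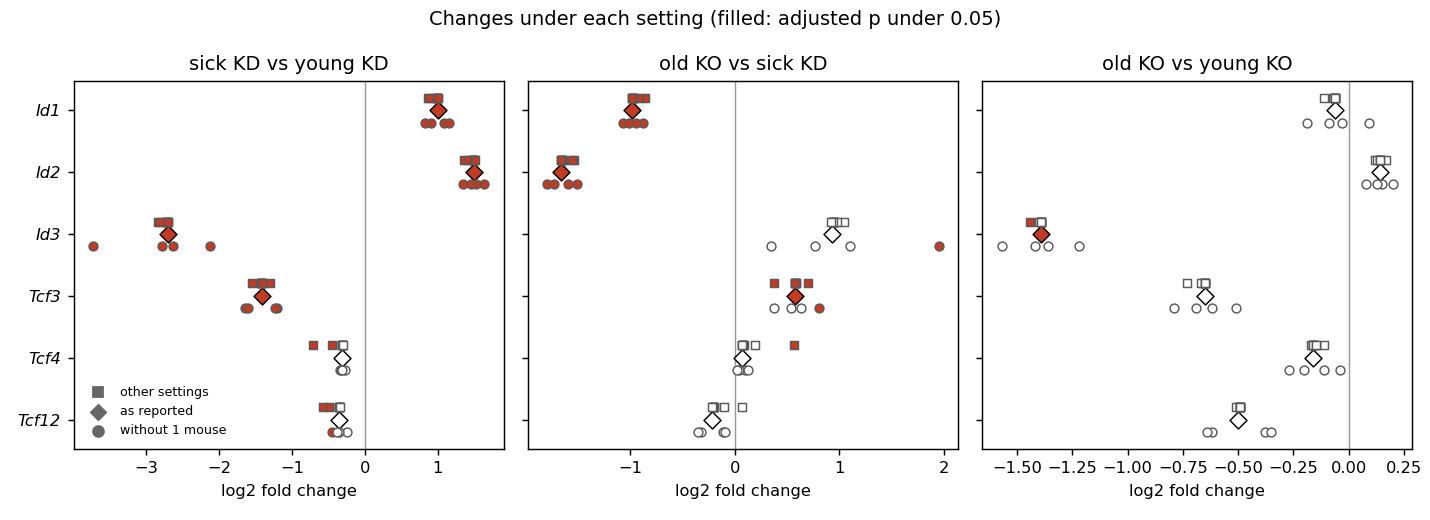
Log2 fold change of each gene as reported (diamonds), under the other settings (squares) and without 1 mouse at a time (circles) in 3 comparisons, filled where the adjusted p was under 0.05. Id1 and Id2 stay filled throughout the comparisons with sick KD mice, Tcf3 in old KO against sick KD is filled in 1 of 4 fits without a mouse, and Id3 in old KO against young KO is filled in none of them.

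Genes around the family were described from fixed lists. Of all genes tested, 20.9% were called in sick KD against young KD, 9.45% as higher and 11.4% as lower. In old KO against sick KD 18.1% were called, 9.93% as higher and 8.22% as lower, and in old KO against young KO 0.929%. The counts called in the lists and marker lists below stand beside these shares. Lists with a single call lie near them. Upstream of the Id genes, 19 of 21 BMP, TGF-beta and SMAD genes were tested between old KO and sick KD, of which 4 were higher and 3 lower, and 18 between sick KD and young KD, of which 3 were higher and 4 lower. The median log2 fold changes were 0.19 and -0.19, beside medians of all tested genes within 0.01 of 0. Bmpr2, the type 2 BMP receptor, was at 205 and 145 CPM in sick KD and 63.7 to 83.9 CPM in the other 6 mice. It rose in sick KD over young KD (1.24 ± 0.20, adjusted p = 0.0128) and was lower in old KO than in sick KD (-1.22 ± 0.18, adjusted p = 0.00851), as Id1 and Id2 were. The ligand Bmp6 (-1.69 ± 0.47, adjusted p = 0.0485) and the type 1 receptor Acvrl1 (-0.61 ± 0.17, adjusted p = 0.0463) fell in sick KD, and both were higher in old KO (1.67, adjusted p = 0.0488, and 1.15, adjusted p = 0.00947). The sick KD values of Bmp6 rest on 6 and 8 counts. Without a mouse, the count of calls in this list went from 7 down to 4 without sick KD replicate 1 and 3 without old KO replicate 1 for old KO against sick KD, and from 7 down to 2 without young KD replicate 1 and 3 without young KD replicate 2 for sick KD against young KD.

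Of the signal transducers, Smad1 and Smad5, which act downstream of BMP receptors, were at 0.10 (adjusted p = 0.555) and -0.12 (adjusted p = 0.42) in sick KD against young KD. Of the EGR factors upstream of Id3 and their corepressor Nab2, Egr2 fell in sick KD (-1.92 ± 0.52, adjusted p = 0.0442, on 3 and 11 counts there), 1 of 4 genes tested, with a list median of -1.45. That call was lost with DESeq2, without sick KD replicate 1 and without young KD replicate 1. Between old KO and sick KD 0 of 3 EGR genes passed by edgeR or DESeq2 and 2 had an unadjusted p under 0.05, with a median of 0.82. Huwe1, a ubiquitin ligase with bHLH factors and other proteins among its substrates, was the 1 gene of 5 that bear on Id protein stability to pass, rising in sick KD (0.52 ± 0.12, adjusted p = 0.0332) and lower in old KO than in sick KD (-0.62 ± 0.14, adjusted p = 0.0301). Those Huwe1 calls were lost without either young KD mouse in the first comparison and without sick KD replicate 1, old KO replicate 1 or old KO replicate 2 in the second. Usp1, the deubiquitinase of Id proteins, was at 0.05 (adjusted p = 0.738) and -0.14 (adjusted p = 0.464).

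Among the partners and cofactors of E proteins, Tal1, a bHLH factor of erythroid cells and stem cells, fell in sick KD (-1.44 ± 0.26, adjusted p = 0.0166) and was higher in old KO than in sick KD (1.76 ± 0.25, adjusted p = 0.00753), in each case the single call in its list. The first of these was lost without sick KD replicate 1, and 2 genes of the list were called without sick KD replicate 2. Of 13 cofactors, 2 rose and 3 fell in sick KD, with a median of -0.05, and 3 were higher and 3 lower in old KO than in sick KD, with a median of 0.35. Gata1, the erythroid GATA factor, fell in sick KD (-1.70 ± 0.27, adjusted p = 0.0124) and the acetyltransferase Ep300 rose (0.70 ± 0.13, adjusted p = 0.0179). Runx1t1 fell as well (-2.07 ± 0.57, adjusted p = 0.0478), on 7 and 2 counts in sick KD. Between old KO and sick KD, Gata1 was at 1.94 (adjusted p = 0.00763), Ep300 at -0.78 (adjusted p = 0.0157) and its paralog Crebbp at -0.68 (adjusted p = 0.0157). The cofactor count fell to 1 without either young KD mouse, and in old KO against sick KD to 3 without sick KD replicate 1 and 2 without old KO replicate 1. Erythroid markers moved with Tal1 and Gata1. All 8 fell in sick KD against young KD, their summed level was 389 to 592 CPM in sick KD and 976 to 2876 CPM in the other groups, and none was at 0 in both mice of any group. Their part in these changes was not tested.

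Of the 11 lists, the B-lineage genes that E2A is known to activate had the largest median change in sick KD against young KD. All 15 fell there, with a median log2 fold change of -3.84, and 14 or 15 fell without any 1 mouse. Rag1, the recombinase subunit, was at 294 and 180 CPM in young KD and 0.599 and 7.05 CPM in sick KD (-5.91 ± 0.80, adjusted p = 0.0082). Dntt, the terminal transferase, was at 96.9 and 45.3 CPM in young KD and 0.799 and 4.79 CPM in sick KD (-4.63 ± 0.69, adjusted p = 0.0107), and Rag2 changed by -4.45 ± 0.60 (adjusted p = 0.00816). The sick KD mice were far below the young KD mice for each. The list was low in old KO too. There 11 of 15 fell against young KO (median -2.26), 1 without young KO replicate 2 and 8 to 13 without any other mouse. In old KO against sick KD, 4 of 15 were higher and none lower (median 1.32), led by the adaptor Blnk (1.91 ± 0.41, adjusted p = 0.0247), the coactivator Pou2af1 (1.67 ± 0.41, adjusted p = 0.0351) and the interleukin-7 receptor gene Il7r (1.32 ± 0.29, adjusted p = 0.0249). The number called there was 13 without sick KD replicate 2, 8 without old KO replicate 1 and 2 without sick KD replicate 1.

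B-cell markers moved with Tcf3 and Id3. Their summed level over 8 genes was 610 to 717 CPM in young KD, 532 to 634 in young KO, 131 to 187 in old KO and 39.5 to 89.2 CPM in sick KD, the same order as the group means of Tcf3 and Id3. All 8 fell in sick KD against young KD and all 8 fell in old KO against young KO, 3 were higher in old KO than in sick KD, and none was at 0 in both mice of any group. Some of these 8, among them Cd79a, Cd79b, Pax5 and Ebf1, are also in the E2A list. In whole marrow, fewer cells of a type and less RNA per cell cannot be told apart, and the part of B cells in the Tcf3 and Id3 values was not tested.

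The plasmacytoid dendritic cell genes that TCF4 is known to activate were mostly lower in sick KD than in young KD. Tcf4 itself was at -0.31 there, which did not pass as reported but passed under 3 other settings. The part of Tcf4 in the values of these genes was not tested. In sick KD against young KD, 8 of 13 tested fell and 1 rose (median -1.0), with Spib, an ETS factor, at -4.72 ± 0.54 (adjusted p = 0.0057), Ly6d at -3.22 ± 0.21 (adjusted p = 0.00262) and Cox6a2 at -2.95 ± 0.40 (adjusted p = 0.00814). Cox6a2 had 5 and 5 counts in sick KD. In old KO against sick KD, 5 of 13 were higher and 2 lower (median 1.16). The lectin gene Siglech was at 18.1 and 14.6 CPM in young KD, 12.1 and 13 in young KO, 6.15 and 12.7 in old KO and 3.23 and 1.73 CPM in sick KD. It was higher in old KO than in sick KD (1.92 ± 0.43, adjusted p = 0.0278), as were Ly6d (1.70 ± 0.23, adjusted p = 0.00686) and Pacsin1 (1.60 ± 0.39, adjusted p = 0.0335). The 5 markers of these cells, all of them in this list as well, summed to 2.54 to 5.19 CPM in sick KD, 9.98 to 18.1 in old KO and 19 to 27.7 CPM in young mice, with none at 0 in both mice of a group. Spib and Ly6d are also expressed by B cells.

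Of the T-lineage genes that HEB and E2A are known to activate, 7 of 8 were tested. In sick KD against young KD, Cd4 fell (-1.97 ± 0.29, adjusted p = 0.0102) and Notch1 rose (0.46 ± 0.11, adjusted p = 0.0316), with a list median of -0.07, and 1 gene was called without either young KD mouse. Relative to sick KD, old KO marrow had higher Cd4 (2.13 ± 0.32, adjusted p = 0.00928) and Bcl11b (1.84 ± 0.42, adjusted p = 0.028), with a median of 1.10. The 7 T-cell markers summed to 13 to 19 CPM in sick KD, 43.8 to 49.7 in old KO and 26.0 to 31.7 CPM in young mice, and 6 of 7 were higher in old KO than in sick KD. In sick KD against young KD 2 of 7 fell. Mean levels of Cd3e (0.846 CPM in young KD and 0.951 in sick KD) and Cd3g (2.92 and 2.99 CPM) hardly changed.

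The list of Gfi1 and its corepressors includes Gfi1 itself, the targeted gene. Its mouse counts leave out the human cDNA of the KD mice, so they do not give total Gfi1 levels. In this list 3 of 6 genes fell in sick KD against young KD. Gfi1b, the Gfi1 paralog of erythroid cells and megakaryocytes, fell (-1.57 ± 0.24, adjusted p = 0.0116), as did the demethylase gene Kdm1a (-0.61 ± 0.11, adjusted p = 0.0173) and Rcor1 (-0.53 ± 0.10, adjusted p = 0.0188). The list median was -0.37, Hdac1 was at 0.20 (adjusted p = 0.236) and Hdac2 at -0.22 (adjusted p = 0.155), and 1 gene was called without young KD replicate 1. Old KO was above sick KD for 4 of 6 genes (median 0.50), with Gfi1b at 1.71 ± 0.31 (adjusted p = 0.0149), Kdm1a at 0.53 ± 0.11 (adjusted p = 0.0224) and Gfi1 at 1.77 ± 0.38 (adjusted p = 0.0234), and 2 without sick KD replicate 1, old KO replicate 1 or old KO replicate 2.

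**Figure D5:**
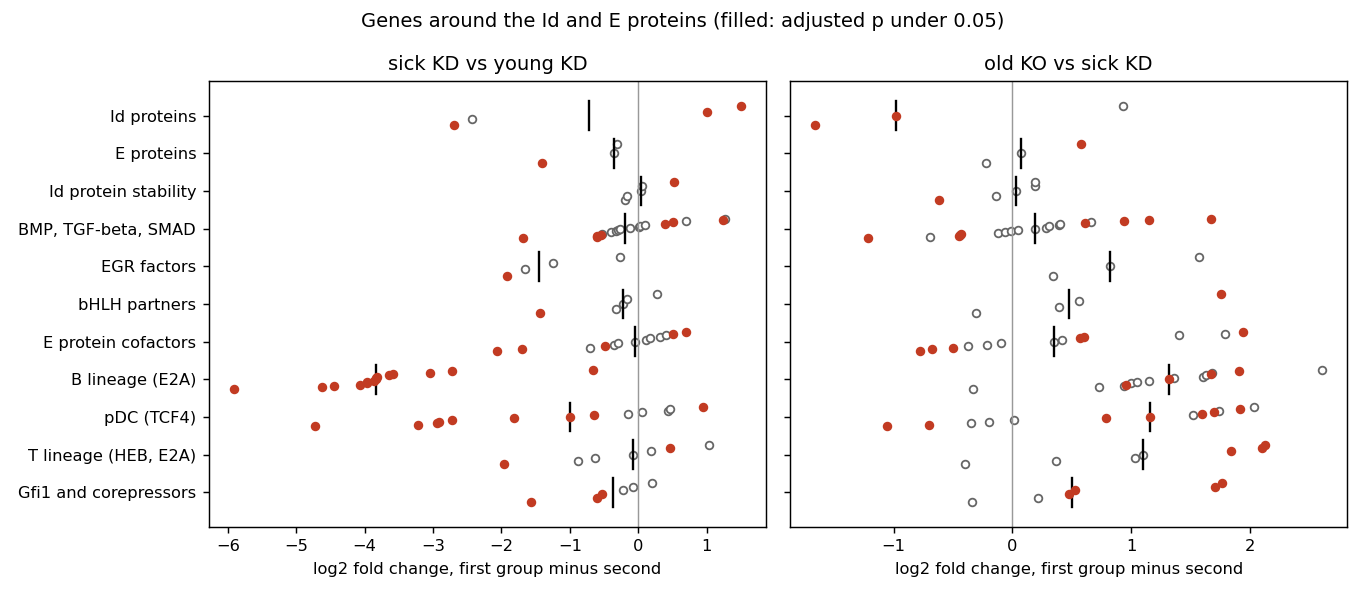
Log2 fold change (x axis) of every tested gene in the 11 lists (rows, genes ordered by value), for sick KD against young KD (left) and old KO against sick KD (right), filled where the adjusted p was under 0.05, with a vertical line at each list's median. All 15 B-lineage genes lie left of 0 in the first panel, with a median of -3.84, and 4 of them pass to the right of 0 in the second.

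Summed levels of several myeloid marker lists were higher in sick KD, where Id1 and Id2 were high. The 5 immature neutrophil markers summed to 6214 to 6973 CPM in sick KD and 4232 to 5533 CPM in the other groups, the 8 mature neutrophil markers to 1735 to 4562 and 585 to 1522 CPM, and the 6 monocyte markers to 9018 to 9643 and 6098 to 8366 CPM. The highest mature neutrophil sum rested mostly on S100a8 (2120 and 640 CPM in sick KD, 475 and 647 in young KD) and S100a9 (1100 and 282, 306 and 358) in sick KD replicate 1. Of the immature neutrophil markers 4 of 5 rose in sick KD against young KD and none fell. Of the mature neutrophil markers 2 of 8 rose and 1 fell, so most of them did not pass. Of the monocyte markers 2 of 6 rose and 1 fell, and the others did not pass. Of all genes tested, 9.45% rose and 11.4% fell in that comparison. The 6 markers of eosinophils, basophils and mast cells summed to 342 to 391 CPM in sick KD and 447 to 1151 CPM elsewhere, and by edgeR 0 passed in sick KD against young KD, with 2 at an unadjusted p under 0.05 and 1 by DESeq2. Macrophage markers (212 to 242 CPM in sick KD and 256 to 468 elsewhere) and stroma markers (28.3 to 28.5 CPM in sick KD and 105 to 210 elsewhere) went the other way, with 6 of 7 genes falling in each list. NK-cell markers summed to 76.4 to 81.6 CPM in sick KD, 73.1 to 95.3 in old KO and 94.8 to 121 CPM in the young groups. Of these markers 5 of 7 fell in sick KD against young KD. Of the 6 stem and progenitor markers, summed at 157 to 258 CPM over all mice, 0 passed by edgeR or DESeq2 in either comparison with sick KD mice, and 0 had an unadjusted p under 0.05. No marker of these lists was at 0 in both mice of a group, and the part of any cell type in the Id1 and Id2 values was not tested.

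The genes most like each member were ranked by Pearson's r of log2(CPM + 1) over the 8 libraries among 9623 protein-coding genes, as a description with no test, since the sick KD libraries stand apart from the rest and weigh on every such value. Closest to Id2 were Cep128 (0.995), Zfp398 (0.994) and Polr2a (0.993). Polr2a, the large subunit of RNA polymerase II, had mean levels of 67.3 CPM in young KD, 52.0 in young KO, 163 in sick KD and 58.0 CPM in old KO. Closest to Id1 were 1810043G02Rik (0.989), Timmdc1 (0.988) and Smyd2 (0.988), of which Timmdc1 ranged only from 19.8 CPM in old KO to 23.6 CPM in sick KD.

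For Tcf3 the closest were Col27a1, Sox4 and Dntt, each at 0.995. Sox4, a factor of early B cells among others, had means of 80.1 CPM in young KD, 66.8 in young KO, 32.9 in old KO and 17.7 CPM in sick KD. Closest to Id3 were Arvcf (0.991), Rfxank (0.989) and Snn (0.988). Snn had means of 92.6, 72.2, 17.6 and 5.88 CPM in the same order of groups. Closest to Tcf4 were Cep97 (0.974), S100pbp (0.966) and Hivep2 (0.965), and to Tcf12 Dennd3 (0.977), Kcnq5 (0.977) and Zfp180 (0.972). With a pseudocount of 5 in place of 1, the top 3 were the same for Id1, Tcf4 and Tcf12, while 2 of 3 were shared for Id2 and Id3 and 1 of 3 for Tcf3.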

How the data were processed

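RNA was from whole BM of 8 mice, and libraries were made with a stranded mRNA kit and sequenced on a HiSeq 2000. The authors aligned reads to the mouse genome (mm10, GRCm38) with TopHat2 2.0.10 and counted them per Ensembl gene with HTSeq; the strand setting and annotation release are not given in the sources used here. The deposited values are raw counts per gene, and the authors' own comparisons (DESeq) were not used here. Rows that name no gene stayed out of library sizes (reads outside genes, 26.9% to 42.0% of uniquely aligned reads). Symbols, positions and lengths came from GENCODE M21, which matched 40254 of 41214 identifiers.

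Counts were scaled by TMM and tested with edgeR 4.0.16 (R 4.3.3) by the quasi-likelihood test after filterByExpr, on the 4 mice of each comparison, and on all 8 for the interaction, with Benjamini-Hochberg adjustment over all genes tested and a threshold of 0.05. The standard error is the absolute log2 fold change over the square root of F. Whether mice of a group shared a litter or cage is not stated. The p-values rest on the spread between these mice, with the spread of each gene drawn towards a trend over all genes. Depth was 26642067 to 42679114 counts per library.

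Named genes were the 6 members, Id4, Gfi1, up to 3 called genes with the largest change per list in old KO against sick KD and in sick KD against young KD, and the 3 genes most like each member (mean of at least 5 CPM; sex-linked genes and antigen-receptor segments left out). A gene that this rule names is not reported here. Smad1, Smad5, Usp1 and the further genes given by value were chosen after their values were seen. The members and lists were chosen with earlier results of these data known. Alternatives were DESeq2 1.42.0 (Wald test and size factors), no TMM, other filters on low counts, correction of each library for length, span and GC content, erythroid, immunoglobulin and mitochondrial genes left out, all 8 mice in 1 fit, and leaving out each mouse. Promoter windows ran from 250 bases before to 50 after the RefSeq start.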

Additional observations from a re-analysis of the deposited data

Results flagged for a closer look

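The following genes were picked out because the gap between KO and KD marrow differed between the young groups and the later groups, old KO and sick KD. The change itself was tested by the edgeR interaction over all 8 mice (log2 values with adjusted p). Disease, present in the sick KD mice only, cannot be told apart from genotype and age in that test. Among the members these were Id2 at -1.37 (adjusted p = 0.008) and Id1 at -1.06 (adjusted p = 0.0287), the first of which passed in 8 of 8 fits without 1 mouse and the second in 2 of 8.

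Upstream, Bmpr2 had an interaction of -1.17 (adjusted p = 0.0444) and Acvrl1 of 0.95 (adjusted p = 0.0297). Among partners and corepressors, Tal1 had 1.86 (adjusted p = 0.0412), Gata1 2.20 (adjusted p = 0.0252), Gfi1b 1.88 (adjusted p = 0.0375) and Kdm1a 0.58 (adjusted p = 0.0372). Among the lists of genes that E proteins are known to activate, the B-lineage adaptor Blnk had 2.18 (adjusted p = 0.0355). From the plasmacytoid dendritic cell list, Siglech had 2.31 (adjusted p = 0.0384), Ly6d 1.74 (adjusted p = 0.0126) and Pacsin1 1.89 (adjusted p = 0.042). Cd4, from the T-lineage list, had 2.37 (adjusted p = 0.016). Of the genes most like a member, 1810043G02Rik, ranked for Id1, had -0.78 (adjusted p = 0.0326), and Cep128, Zfp398 and Polr2a, ranked for Id2, had -0.65 (adjusted p = 0.0246), -0.72 (adjusted p = 0.0288) and -1.13 (adjusted p = 0.00769). The last 4 were chosen for their likeness to Id1 and Id2 over the same mice, so their values are not independent of those of the members. The list genes were named for their large changes in the comparisons with sick KD mice. Those comparisons are part of the interaction and use the same mice, so passing it was favoured in advance.

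Most of these calls did not hold without 1 mouse. Polr2a passed in 8 of 8 such fits, Ly6d in 6, Cd4 in 5, Gata1 in 3, Tal1 and Gfi1b in 2, and Bmpr2, Acvrl1, Blnk, Siglech, Pacsin1, Kdm1a, 1810043G02Rik, Cep128 and Zfp398 in 1. Other than Id2 and Polr2a, each missed the threshold without young KO replicate 1 and without young KD replicate 1, while keeping its direction in all 8 fits.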

How the results depend on the processing

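No paired analysis was possible because each mouse has its own number in the labels, so none recurs across the groups. For the members, 334 values under another setting kept their direction and side of the threshold, 19 newly passed, 16 no longer passed and 9 changed sign. The sign changes concerned only genes that did not pass. Between the young groups, without each mouse in turn, Id1 ranged from -0.08 to 0.26, Tcf3 from -0.34 to 0.01, Tcf4 from -0.20 to 0.02 and Tcf12 from -0.22 to 0.06, with -0.07 for Id1 without young KO replicate 1, and Tcf4 was 0.00 after correction for length, span and GC content. After that correction Tcf12 was 0.07 in old KO against sick KD and 0.08 in the interaction, and Id1 ranged from -0.19 to 0.09 in old KO against young KO without each mouse in turn. The cause was not tested.

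Genes called between the young groups numbered 6, but 27 with DESeq2, 119 without the filter and 3 with all 8 mice (2 to 8 without a mouse), with 1 list gene by DESeq2. In old KO against sick KD, 2626 became 4325 without the filter and 4200 with all 8 mice (1221 to 2795 without a mouse). In sick KD against young KD, 3063 ranged from 1316 to 3401 without a mouse. In old KO against young KO, 138 became 383 with DESeq2 and 796 without the filter (17 to 307 without a mouse), and the 1 member called became 0 without TMM, 2 with DESeq2, 3 without the filter, 0 with at least 10 counts in every mouse, 0 with all 8 mice and 0 without any mouse. In the interaction, 1122 became 1951 with DESeq2, 2919 without the filter and 1794 after the correction (106 to 1614 without a mouse), members called went from 2 to 4 without the filter (1 to 4 without a mouse), and list genes called went from 16 to 26 with DESeq2 (1 to 32 without a mouse). List genes called without a mouse were 22 to 42 in old KO against sick KD, 32 to 49 in sick KD against young KD and 1 to 17 in old KO against young KO. With erythroid, immunoglobulin and mitochondrial genes left out, the split in old KO against young KO moved from 48 higher and 90 lower to 11 and 90. Where a group was left with 1 mouse, that mouse was assumed to vary like the others. The mean Id-to-E ratio per kb of coding transcript, a length added after seeing the data, was 1.79 in sick KD and 0.643, 0.498 and 0.516 in old KO, young KO and young KD, against 4.88, 1.53, 1.09 and 1.07 per kb of exon. Depth limits Id3 in sick KD (24 and 83 counts) and Id4. It also limits several list genes in sick KD, among them Bmp6 (6 and 8 counts), Runx1t1 (7 and 2), Egr2 (3 and 11), Cox6a2 (5 and 5) and Pacsin1 (15 and 12).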

Other observations

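The 2 sick KD mice differed from each other. Replicate 1, 187 days old, had lower Tcf3 (52.3 against 70.9 CPM), lower Id3 (0.958 against 2.92 CPM), lower Rag1 (0.599 against 7.05 CPM), lower Cd79a (2.2 against 6.76 CPM) and higher Id2 (176 against 145 CPM) than replicate 2, 78 days old. Id1 went the other way (50.6 against 57.7 CPM). With 1 mouse at each age this was not tested.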
